A study of Coturnix japonica with 15 samples.

Results

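The 7 genes described here, CORIN, KCNK9, CKMT2, HHIPL2, AANAT, DRC7 and GRXCR2, were higher in the liver of quail embryos after an oestrogen than after solvent, where all but DRC7 gave few or no reads. They are 7 of the 20308 gene IDs in the count table, found by their symbols in NCBI's gene table for Coturnix japonica. They were chosen by their rise in CPM and counts against solvent in these same libraries, so their levels and changes against solvent are a description, and no p-value is given for them. Left-lobe liver was taken at embryonic day 9 from Japanese quail whose eggs had been injected in the air cell, before incubation, with 10 µl of solution; the eggs were kept at 37 °C with humidity at 60%. The solvent group received DMSO alone, and the other groups received ethinylestradiol (EE2), a synthetic oestrogen, at 3.33 or 33.3 µg per g of egg, with 5 libraries in each group. The labels give no strain or sex and leave unsaid if the libraries are of different embryos, so p-values measure only the spread between libraries, which may be technical. Total estimated counts were 21715263 to 54591387 per library.

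Liver cells of egg-laying vertebrates carry oestrogen receptors, ligand-activated transcription factors that bind DNA and raise the transcription of target genes, best known for egg yolk precursors. The 7 genes belong to no common pathway and are known mainly from other organs. CORIN is a membrane serine protease that activates atrial natriuretic peptide in the mammalian heart, and CKMT2 is the mitochondrial creatine kinase of striated muscle. KCNK9 is a tandem pore domain potassium channel that conducts at rest, best known from neurons. AANAT acetylates serotonin on the way to melatonin, mostly in the pineal gland and retina. DRC7 is a subunit of the nexin-dynein regulatory complex, which controls the beating of motile cilia and sperm tails. GRXCR2 is a protein of the sensory hair bundle in the mouse inner ear, and HHIPL2 is named for its resemblance to the hedgehog-interacting protein.

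The libraries were liver by their content. Albumin transcripts alone took 9.71% to 13.3% of the counts in 13 of 15 libraries, but 4.85% in 3.33 µg/g replicate 4 and 5.87% in 33.3 µg/g replicate 1. Levels below are counts per 1e+06 on TMM-scaled totals (CPM), given for replicates 1 to 5 in that order and then as mean ± SD. Intervals for ratios of summed reads cover counting error only. Those for differences between the doses come from the fit and include the spread between libraries. In whole tissue, more cells of a type and more RNA per cell cannot be told apart.

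CORIN lay near 0 CPM with solvent and at 8.27 CPM or more in every treated library. In solvent livers it stood at 1.18, 0.395, 0.238, 0.173 and 0.149 CPM (0.426 ± 0.43, n = 5), from 4 to 38 reads per library. At 3.33 µg/g the libraries gave 15.7, 10.7, 39.7, 21.8 and 47.7 CPM (27.1 ± 15.9), and at 33.3 µg/g 25.0, 37.4, 8.27, 24.8 and 42.2 CPM (27.5 ± 13.2). Every treated library lay above every solvent library, and the lowest was 7.03 times the highest solvent value. The fitted log2 fold change was 5.88 (SE 0.64) at the lower dose and 5.90 (SE 0.64) at the higher. Solvent replicate 1 held most of the solvent reads, and without it the values were 6.82 and 6.84. CORIN has 3 transcript entries in the table, and entries 1 and 2 each took at least 31.2% of its reads in every treated library.

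KCNK9 varied least among the livers given 3.33 µg/g. Solvent values were 0.0310, 0.395, 0.0951, 0 and 0.0747 CPM (0.119 ± 0.159, n = 5), a total of 14 reads of which replicate 2 held 9. The libraries at 3.33 µg/g gave 1.68, 2.03, 1.55, 1.40 and 1.59 CPM (1.65 ± 0.235), and those at 33.3 µg/g 1.45, 2.37, 0.967, 2.08 and 2.24 CPM (1.82 ± 0.595). Groups did not overlap: the lowest treated value was 2.44 times the highest solvent value. The fitted log2 fold changes were 3.80 (SE 0.57) and 3.94 (SE 0.57), and 4.96 and 5.10 without solvent replicate 2. Which of its 2 transcript entries carried the reads differed between libraries. Entry 2 held over 90% of them in 3.33 µg/g replicates 1, 3 and 4 and in 33.3 µg/g replicate 1, and entry 1 held over 90% in 3.33 µg/g replicate 5 and in 33.3 µg/g replicates 3, 4 and 5. The sum of both entries was a whole number of reads in 15 of 15 libraries, within 0.01, so the level of the gene does not depend on that split.

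CKMT2, which lies on chromosome Z, had the widest fold range between libraries at 3.33 µg/g. Solvent libraries gave 0.0929, 0.0879, 0.143, 0 and 0 CPM (0.0647 ± 0.0628, n = 5), 8 reads in all. At 3.33 µg/g the values were 8, 25.6, 5.93, 0.644 and 3.63 CPM (8.77 ± 9.81), a 39.8-fold range from replicate 4 to replicate 2. At 33.3 µg/g they were 1.39, 3.36, 1.43, 1.41 and 6.02 CPM (2.72 ± 2.03). All treated libraries were above all solvent libraries, the lowest by 4.52 times the highest solvent value. Fitted log2 fold changes were 7.02 (SE 1.05) and 5.32 (SE 1.05), the first falling to 6.07 without 3.33 µg/g replicate 2.

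HHIPL2 gave 0.0619, 0.132, 0.380, 0.217 and 0.0373 CPM in solvent livers (0.166 ± 0.139, n = 5), from 19 reads. It gave 4.04, 1.07, 1.89, 5.19 and 9.15 CPM at 3.33 µg/g (4.27 ± 3.19) and 2.30, 1.58, 0.867, 1.09 and 6.86 CPM at 33.3 µg/g (2.54 ± 2.48). Replicate 5 was the highest library at either dose, although replicate numbers do not pair the libraries. Treated and solvent values did not overlap, the lowest treated value being 2.28 times the highest solvent value. The fitted log2 fold changes were 4.73 (SE 0.80) and 3.96 (SE 0.79), and the second was 3.19 without 33.3 µg/g replicate 5.

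AANAT was the nearest to silence. Its 1 read among the solvent livers fell in replicate 3, and the other 4 libraries held none. At 3.33 µg/g the libraries held 13, 16, 68, 125 and 6 reads, or 0.376, 0.428, 2.92, 4.74 and 0.170 CPM (1.73 ± 2.03, n = 5), so replicates 3 and 4 carried most of the group. At 33.3 µg/g they held 22, 31, 1, 3 and 3 reads, or 0.693, 0.598, 0.0333, 0.106 and 0.149 CPM (0.316 ± 0.306). Against the single solvent read, the ratio of summed reads per effective total was 183 at 3.33 µg/g (95% exact counting interval 32.5 to 7256) and 46.6 at 33.3 µg/g (8.05 to 1872). These intervals treat reads as independent and leave out the spread between libraries. They are no test of the rise by which AANAT was chosen. Replicate 3 at 33.3 µg/g was below solvent replicate 3, so AANAT separated from solvent in 5 of 5 libraries at the lower dose and 4 of 5 at the higher. Of its 2 transcript entries, 1 had no reads in any library.

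DRC7 was not near-silent. Solvent livers gave 1.83, 2.33, 2.42, 2.25 and 2.17 CPM (2.20 ± 0.229, n = 5), from 51 to 59 reads per library. The values were 9.53, 10.4, 29.3, 8.91 and 22 CPM at 3.33 µg/g (16.0 ± 9.16) and 5.95, 28.4, 27.6, 20.6 and 27.2 CPM at 33.3 µg/g (21.9 ± 9.48). No treated library came below 2.45 times the highest solvent value. Fitted log2 fold changes were 2.87 (SE 0.43) and 3.32 (SE 0.43).

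GRXCR2 had the narrowest gap among the 6 genes whose groups did not overlap at either dose. The solvent values were 0.0310, 0.220, 0.238, 0.0866 and 0.299 CPM (0.175 ± 0.112, n = 5), from 21 reads. The libraries at 3.33 µg/g gave 1.16, 2, 2.15, 4.36 and 0.397 CPM (2.01 ± 1.49), and those at 33.3 µg/g 1.67, 1.04, 0.900, 0.353 and 0.796 CPM (0.952 ± 0.476). The lowest treated value was only 1.18 times the highest solvent value. Fitted log2 fold changes were 3.52 (SE 0.65) and 2.46 (SE 0.65). The estimate for GRXCR2 was a whole number of reads in only 2 of 15 libraries, within 0.01, which is how a kallisto estimate looks when reads are shared with an entry of another gene ID, so its level is less certain than the others. For CORIN the sum was whole in 9 of 15 libraries, and for the other 5 genes in 15 of 15.

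**Figure D1:**
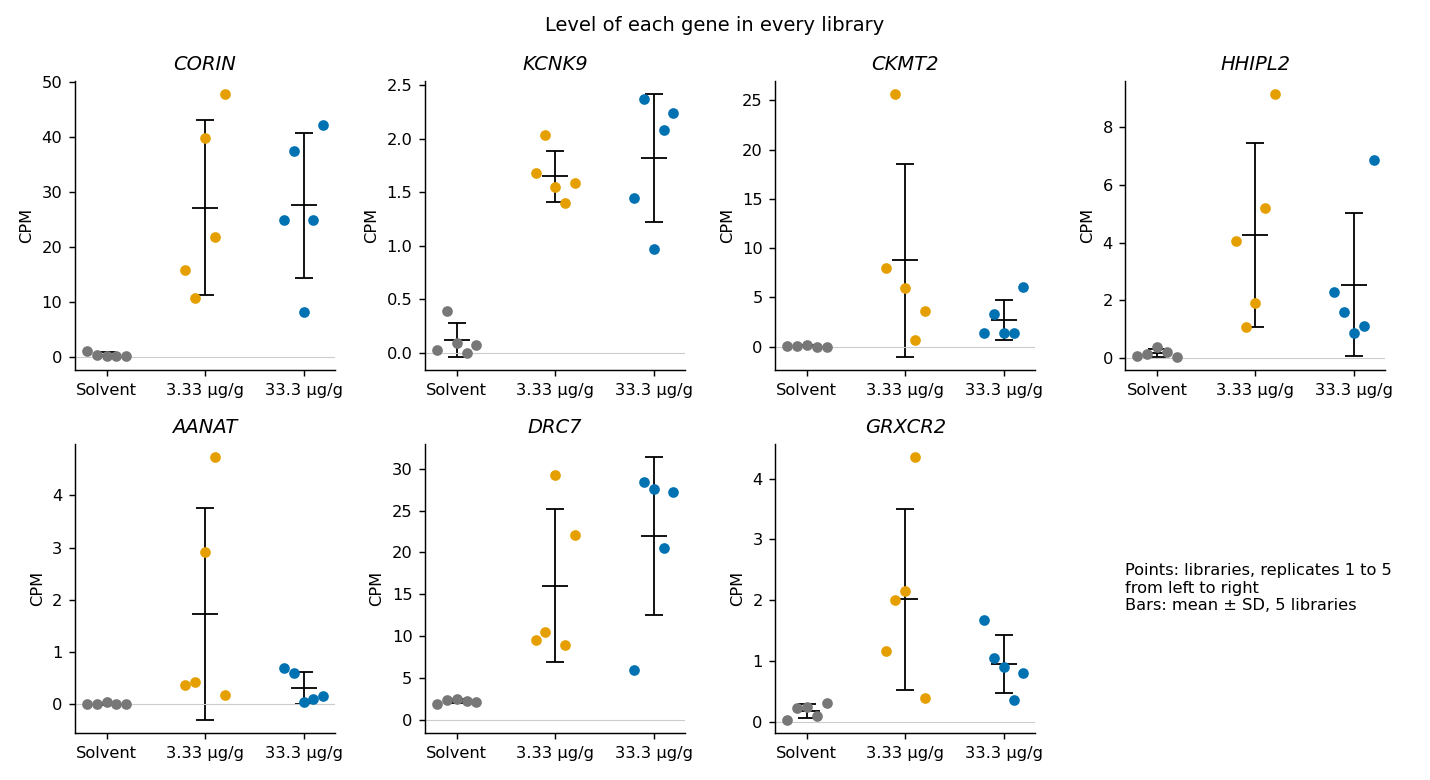
CPM of each gene (vertical axis, linear, a different range per panel) in the 5 libraries of each group; points are libraries and bars are mean ± SD. Solvent points lie near 0 in every panel except that of DRC7, where they lie at 1.83 to 2.42 CPM. The ratio of the highest to the lowest library is largest for CKMT2 at 3.33 µg/g (39.8) and for AANAT at 33.3 µg/g (20.8).

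In the fit across all genes (edgeR's quasi-likelihood test with Benjamini-Hochberg adjustment), which includes the contrasts that chose them, 7 of 7 genes were called higher at 3.33 µg/g, beside 1.07% of the 14508 genes tested, and 5 of 7 at 33.3 µg/g, beside 0.937%. AANAT and GRXCR2 were those not called at 33.3 µg/g. Without solvent replicate 1, 2, 4 or 5, CKMT2 and HHIPL2 were not called at 33.3 µg/g either, which left 3 of 7. Without any 1 of the solvent libraries AANAT was not called at 3.33 µg/g, which left 6 of 7. Every treated library exceeded every solvent library for 7 of 7 genes at 3.33 µg/g, beside 2.3% of all genes, and for 6 of 7 at 33.3 µg/g, beside 1.84%. These counts follow from how the genes were chosen and carry no further weight. All 7 passed the filter on low counts, and 6 of them could do so only through their treated libraries. With limma-voom only CORIN and KCNK9 were called at either dose. A solvent mean below 1 CPM was found for 1822 of the genes tested, 6 of the 7 among them. Of those 1822 genes, 43 were called higher at 3.33 µg/g, 6 of the 7 among them, and 37 at 33.3 µg/g, 4 of the 7 among them.

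**Figure D2:**
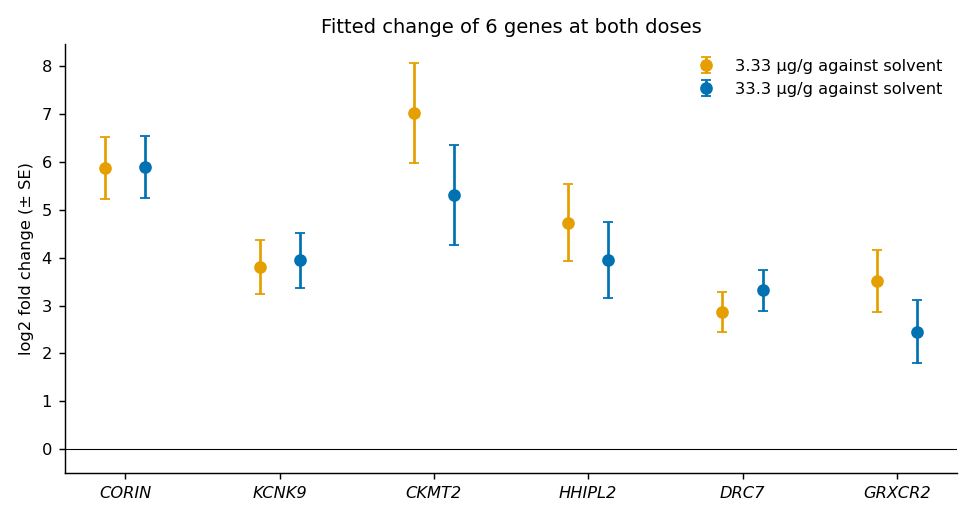
Fitted log2 fold change (± SE) of 6 genes at 3.33 µg/g (orange) and 33.3 µg/g (blue) against solvent. AANAT is left out because its fitted value rests on 1 solvent read. CORIN, KCNK9 and DRC7 show nearly equal values at both doses, and CKMT2, HHIPL2 and GRXCR2 a lower value at the higher dose.

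Whether the level depended on dose was tested between the treated groups, a comparison that did not choose the genes but shares their libraries. The choice was not neutral between the doses for AANAT and GRXCR2, which edgeR called against solvent only at 3.33 µg/g. Their differences below, with intervals and p-values, may therefore lean towards a lower value at 33.3 µg/g. Of the 14508 genes, 0% passed with edgeR, 805 having an unadjusted p under 0.05; DESeq2 called 19 and limma-voom 0, and none of the 7 was called by any of these tools. The difference of 33.3 from 3.33 µg/g was 0.02 for CORIN on the log2 scale (95% interval −0.98 to 1.02), 0.14 for KCNK9 (−0.81 to 1.09) and 0.45 for DRC7 (−0.36 to 1.27). The groups overlapped for all 3, and no difference was detectable with 5 libraries a group. The other 4 genes were lower at the higher dose by the fitted value but did not pass. AANAT differed by −2.35 (−4.21 to −0.49, unadjusted p = 0.0167, adjusted p = 0.859) and CKMT2 by −1.70 (−3.22 to −0.19, unadjusted p = 0.0298, adjusted p = 0.877). Without 3.33 µg/g replicate 4 the AANAT difference was −1.51, and without replicate 2 that of CKMT2 was −0.75. The treated libraries with the most AANAT, 3.33 µg/g replicates 3 and 4 and 33.3 µg/g replicate 1, also had the lowest mean level of chromosome Z genes. The doses were thus uneven in that level, and its part in the AANAT difference was not tested. GRXCR2 differed by −1.06 (−2.24 to 0.11) and HHIPL2 by −0.77 (−2.10 to 0.56, and −1.54 without 33.3 µg/g replicate 5). Exact permutation tests over the 10 treated libraries, two-sided on log2(CPM + 0.5), gave p from 0.183 for AANAT to 0.937 for CORIN.

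The treated livers did not rise together across the 7 genes. Replicates 3 at 3.33 µg/g and 5 at 33.3 µg/g were each among the 3 highest treated libraries for 4 of 7 genes. Replicate 3 at 33.3 µg/g was the lowest treated library for CORIN, KCNK9, HHIPL2 and AANAT, yet among the 3 highest of 10 for DRC7. Replicate 4 at 3.33 µg/g was the highest for AANAT and GRXCR2 and the lowest for CKMT2. As a description over 10 treated libraries, deviations of log2 CPM from the dose means gave Pearson r of −0.44 to 0.79 over the 21 pairs of genes. The closest pairs were AANAT with GRXCR2 (0.79) and CORIN with HHIPL2 (0.63), and the most opposed was DRC7 with GRXCR2 (−0.44). Among 10625 named genes of at least 1 CPM, the 3 with patterns most like CORIN over these libraries were SNAPC4, C21H1orf50 and PIK3CD (r = 0.95, 0.90 and 0.90). For KCNK9 they included ZDHHC2 and USP6NL (0.95 and 0.94), and for CKMT2 they were SVEP1, MANBA and STYK1 (0.97, 0.96 and 0.96). For HHIPL2 they were SF3B5, EBAG9 and RPLP1 (0.93, 0.92 and 0.92), and for AANAT STAMBP, MICALL2 and CYFIP1 (0.97, 0.96 and 0.96). For DRC7 they were DENND6A, INPP5J and UHRF1BP1L (0.96, 0.93 and 0.93), and for GRXCR2 YIPF6, HSPA5 and TMEM104 (0.96, 0.95 and 0.95). Values this high are the extremes of many comparisons over few libraries.

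**Figure D3:**
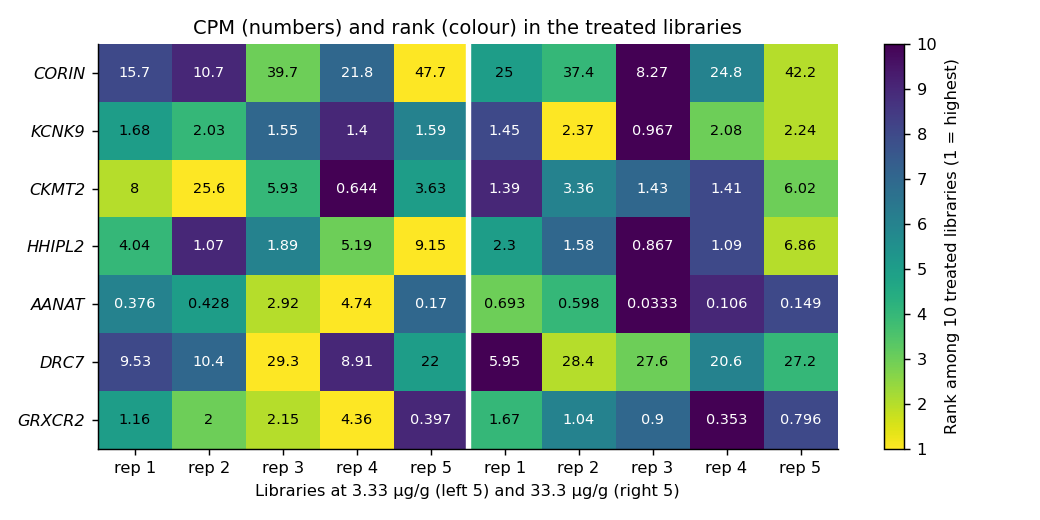
CPM (numbers) of each gene in the 10 treated libraries, coloured by rank within the gene, with rank 1 the highest. The bright cells fall in different columns for different genes, and 33.3 µg/g replicate 3 is darkest for 4 genes.

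On the chromosome, DRC7 stood apart. The 7 genes lie on 7 different chromosomes in the gene table. Of the 28 gene records that flank them, 2 on each side, 18 were tested, and 1 was called at each dose (beside 1.38% of all genes at 3.33 µg/g and 1.08% at 33.3 µg/g). It was LOC107319112, a protein-coding locus with no gene name next to DRC7, whose record overlaps that of DRC7. Its solvent values were 0.217, 0.395, 3.04, 0.13 and 0.0374 CPM, against 109, 151, 441, 342 and 326 CPM at 3.33 µg/g and 148, 489, 289, 162 and 465 CPM at 33.3 µg/g. No treated library came near the solvent range. The log2 fold change was 8.59 (SE 0.85, adjusted p = 6.00e-05 by edgeR) and 8.78 (SE 0.85, adjusted p = 8.81e-05), and 10.45 and 10.63 without solvent replicate 3.

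DRC7 and LOC107319112 could be mixed where they overlap, and strand was not stated for the counting. DRC7 stood at 2.60% to 12.7% of the level of LOC107319112 in the treated libraries. The estimates of both genes were whole numbers of reads in 15 of 15 libraries, within 0.01, so no fractional sharing of reads was seen. Shared reads given wholly to either gene would leave whole numbers as well, so these sums cannot show that there were none. The record of the non-coding LOC116653952 also overlaps that of DRC7, but it had no entry in the count table. Whether reads of either overlapping locus were counted for DRC7 was not tested. In solvent replicate 3, where LOC107319112 was highest among the solvent livers, DRC7 was at 2.42 CPM against 1.83 to 2.33 CPM in the others. The locus was at only 3.04 CPM there, and DRC7 had an SD of 0.229 CPM among solvent livers. That comparison therefore cannot show whether reads were shared.

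**Figure D4:**
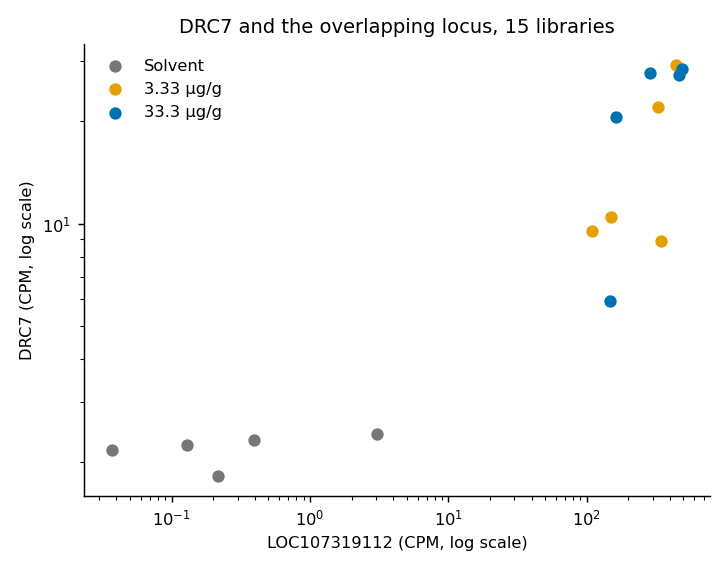
CPM of DRC7 (vertical, log scale) against CPM of the overlapping locus LOC107319112 (horizontal, log scale), 1 point per library, coloured by group. The 5 solvent libraries lie at 1.83 to 2.42 CPM of DRC7 over a range of 0.0374 to 3.04 CPM of the locus, and the 10 treated libraries lie to the upper right.

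The other 17 tested neighbours ranged in log2 fold change from −0.80 to 1.25 at 3.33 µg/g and from −0.19 to 1.33 at 33.3 µg/g, and none passed (lowest adjusted p = 0.107 and 0.449). Next to CKMT2, the Ras exchange factor gene RASGRF2 was at 1.25 and 0.76 at the lower and higher dose, and ZCCHC9 at 0.09 and −0.02. Next to CORIN, the lipid flippase gene ATP10D was at 0.37 and 0.11 and the non-coding LOC107313725 at −0.80 and 1.33. At 33.3 µg/g LOC107313725 averaged 4.51 ± 4.48 CPM, and only 1 library, at 12.3 CPM, was above every solvent library. Next to KCNK9 the trafficking gene TRAPPC9 was at −0.21 and −0.12, and next to HHIPL2 the transcription factor subunit gene TAF1A at −0.10 and −0.12. On either side of AANAT, RHBDF2 was at 0.02 and 0.11 and the ubiquitin-conjugating enzyme gene UBE2O at 0.17 and 0.22. SH3RF2, next to GRXCR2, had at most 2 reads in a group. RASGRF2 passed with DESeq2 at 3.33 µg/g (adjusted p = 0.0291).

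Among the genes listed beside the 7 by pathway, complex, family or organ, PCSK6 at 3.33 µg/g was the one that passed. Of 51 tested genes in the 7 pathway lists, 1 rose and 0 fell at 3.33 µg/g and 0 passed at 33.3 µg/g, beside 1.38% and 1.08% of all genes called in either direction. A count of 1 of 51 is near that background. The lists had median log2 fold changes of 0.03 and 0.08 beside 0.00 over all genes. Unadjusted, 11 and 9 of the 51 had a p under 0.05, beside 2121 and 1560 of the 14508 genes tested.

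**Figure D5:**
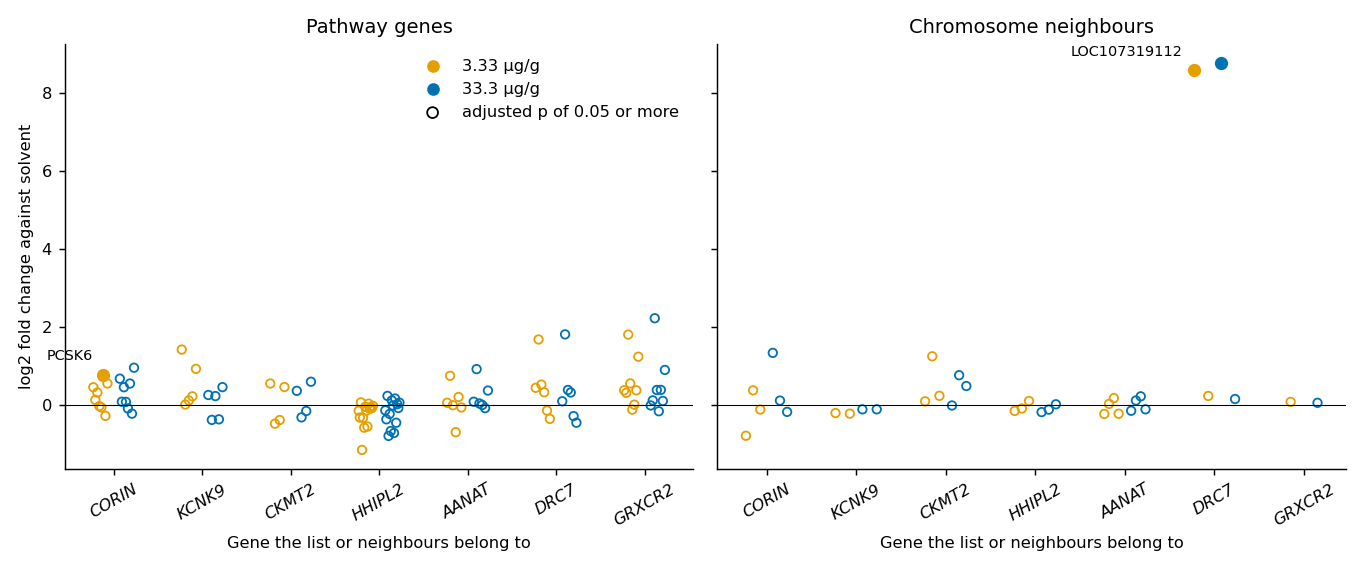
Log2 fold change against solvent of tested pathway genes (left) and chromosome neighbours (right) of each of the 7 genes, at 3.33 µg/g (orange) and 33.3 µg/g (blue); filled points passed at an adjusted p under 0.05. PCSK6 at 3.33 µg/g and LOC107319112 at both doses are the filled points, and the open points lie between −1.16 and 2.22.

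The gene that rose was PCSK6, in the list for CORIN. It encodes a proprotein convertase, the enzyme known in mammals to cleave the corin precursor to its active form. Solvent livers gave 61.8, 51.8, 43.5, 55.6 and 53.4 CPM (53.2 ± 6.65, n = 5). At 3.33 µg/g the values were 85.0, 87.9, 114, 89.7 and 77.7 CPM (90.9 ± 13.9), above solvent in 5 of 5 libraries (log2 fold change 0.77, SE 0.15, adjusted p = 0.0158 by edgeR). At 33.3 µg/g they were 75.2, 81.6, 55.3, 72.1 and 104 CPM (77.7 ± 17.8), above every solvent library in 4 of 5, and did not pass (0.55, SE 0.15, adjusted p = 0.115). With a replicate block the call at 3.33 µg/g ended (adjusted p = 0.0654), while DESeq2 passed PCSK6 at 33.3 µg/g as well (0.0284), as did edgeR without replicate 3 of that dose (0.0359). The related convertase gene FURIN was at −0.07 and −0.09. The natriuretic peptide receptor genes NPR1, NPR2 and NPR3 were at 0.08, 0.45 and 0.07 at 33.3 µg/g, with adjusted p of at least 0.494.

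Around AANAT, TPH1, which hydroxylates tryptophan, averaged 51.4 ± 2.37 CPM in solvent livers and was at 0.05 and 0.08 log2 fold change. The decarboxylase gene DDC was at −0.01 and 0.03, and GCH1, which makes the cofactor of tryptophan hydroxylation, at −0.07 and 0.37. ASMT, the last enzyme of melatonin synthesis, had 59, 44 and 78 reads in the 3 groups and did not pass (−0.71 and −0.01). None of the 6 tested genes of the list passed at either dose.

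Creatine synthesis genes were abundant in every group. GATM averaged 1808 CPM with solvent and GAMT 876 CPM, with log2 fold changes of −0.49 and −0.39 at 3.33 µg/g and −0.32 and −0.16 at 33.3 µg/g. The cytosolic creatine kinase gene CKB was at 0.55 and 0.36 and the creatine transporter gene SLC6A8 at 0.46 and 0.59. None of these 4 tested genes passed (adjusted p of at least 0.226), but SLC6A8 passed with edgeR at 33.3 µg/g without replicate 4 of that dose (0.73, adjusted p = 0.0354).

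Other potassium channels of the KCNK9 family were not called, in 5 tested members. KCNK1 was at 1.42 at 3.33 µg/g (adjusted p = 0.162) and 0.25 at 33.3 µg/g, KCNK5 was at 0.11 and 0.22, and KCNK12 at 0.22 and −0.37. KCNK3, the closest relative of KCNK9 in mammals, had 12, 10 and 13 reads in the 3 groups and was not tested. Among 14 tested hedgehog genes 0 passed with edgeR. The signal gene IHH was at −1.16 (adjusted p = 0.141) and −0.80, the receptor gene SMO at −0.05 and 0.11, and HHIP, at 115 CPM in solvent livers, at −0.16 and −0.15. IHH passed with DESeq2 at 3.33 µg/g (adjusted p = 0.0351).

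No other subunit of the DRC7 complex was called, in 6 tested of 11 in the table. GAS8 was at 0.32 and 0.31 (2.46 CPM with solvent), DRC1 at 0.44 and 0.09, and CCDC65 at 1.68 and 1.81 with an SE of 1.37 and 1.38. In the hair bundle list of GRXCR2, 0 of 8 tested genes passed with edgeR. ESPN, an actin-bundling protein, was the nearest, going from 0.557 ± 0.278 CPM to 1.98 ± 1.49 at 3.33 µg/g (1.80, SE 0.54, adjusted p = 0.118) and 2.64 ± 1.41 at 33.3 µg/g (2.22, SE 0.54, adjusted p = 0.0664). ESPN passed with DESeq2 at both doses (0.0230 and 0.00266), and with edgeR at 33.3 µg/g without replicate 3 or 5 at 3.33 µg/g or replicate 4 at 33.3 µg/g (0.0350, 0.0479 and 0.0348). CLIC5 and MYO7A, at 24.1 and 19.5 CPM with solvent, were at 0.31 and 0.55 at 3.33 µg/g and did not pass at either dose.

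Markers of the organs in which the 7 genes are best known overlapped in level between the groups. The summed level of 13 muscle markers was 37.6 to 125 CPM with solvent, 30.5 to 127 CPM at 3.33 µg/g and 34.3 to 92.3 CPM at 33.3 µg/g. The highest library of each group was at 0.143 CPM of CKMT2 (solvent replicate 3, the highest solvent value), 25.6 CPM (3.33 µg/g replicate 2, the highest of its group) and 1.39 CPM (33.3 µg/g replicate 1, the lowest of its group). The muscle sum hides differences between its markers. TNNC1, the most abundant with solvent, reached at most 60.4, 19.1 and 31.5 CPM in the 3 groups. ACTC1 reached 16.5, 27.3 and 19.4 CPM, and TTN 2.60, 9.70 and 3.65 CPM. Motile cilia markers summed to 10.3 to 11.9, 9.54 to 12.8 and 9.26 to 13.2 CPM. The cilia master regulator gene FOXJ1 averaged 0.0952, 0.215 and 0.143 CPM in the 3 groups. It had 12, 34 and 25 reads and was not tested. Photoreceptor and pineal markers summed to 9.62 to 12.1, 9.62 to 12.4 and 9.91 to 12.7 CPM, nearly all of it GNAT1. In the hair cell list POU4F3 was at 0 in all libraries and MYO7A made most of the sum, 13.9 to 30.9, 18.1 to 40.7 and 18.0 to 34.1 CPM. Neuron markers summed to 19.2 to 26.2, 21.7 to 25.5 and 18.1 to 24.8 CPM. In these 5 lists 0 tested genes passed at either dose (beside 1.38% and 1.08% of all genes).

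The 3 treated libraries with the most AANAT differed from the other treated libraries in the summed level of either hepatocyte or macrophage markers. In 3.33 µg/g replicate 4 the 11 hepatocyte markers summed to 62219 CPM and in 33.3 µg/g replicate 1 to 83167 CPM, against 127197 to 177851 CPM in the other treated libraries. Replicate 4 was the highest treated library for both AANAT and GRXCR2, and replicate 1 the highest at 33.3 µg/g for both. In 3.33 µg/g replicate 3, the second highest for both, the 6 macrophage markers summed to 173 CPM against 39.5 to 100 CPM in the other treated libraries. The part of these differences in the AANAT and GRXCR2 levels was not tested. Most of the hepatocyte sum was ALB and TF, at 116225 and 31839 CPM on average with solvent, so it mainly follows these transcripts. With the 2 libraries of low albumin share left out, a choice made after the data were seen, 7 of 7 and 5 of 7 genes were still called. These calls come from the contrasts that chose the genes and carry no further weight. Of the hepatocyte markers FGB and FGG were called lower at 33.3 µg/g, and of the macrophage markers 1 was called higher at 3.33 µg/g. Endothelial markers summed to 370 to 442, 372 to 545 and 345 to 404 CPM, erythroid markers to 102 to 187, 71.9 to 226 and 93.6 to 176 CPM, and mesenchymal markers to 1395 to 2348, 1634 to 2890 and 1577 to 2485 CPM in the 3 groups, with 0 calls.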

How the data were processed

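Total RNA of left-lobe liver was extracted with DNase digestion and made into 15 Illumina libraries, per the labels' protocols. The authors deposited estimated counts (expected counts) from kallisto, per the submitters' processing notes, for 47418 transcript entries named by NCBI gene ID; for its version, index and build the entry is: not given in the sources used here. Entries were summed per gene ID and rounded; 18900 of 20308 IDs (93.1%) matched the gene table, which served for names and gene order only. No columns of per-sample values were left out. Totals had a median of 28086496.

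The genes, lists and tests were chosen with earlier results of these data known. edgeR 4.0.16 (R 4.3.3) was run with filterByExpr by group, TMM and robust quasi-likelihood F-tests, two-sided, in 1 model of group over 15 libraries, with Benjamini-Hochberg adjustment over 14508 genes at 0.05. SE is the absolute log2 fold change over the square root of F. Of each list, genes that passed and up to 2 of the highest mean were to be named; other listed genes were named after their values were seen. Likeness names the 3 symbols of highest r, except for results not reported here. The pipeline was tested on simulated data. No 2 replicates were copies (over 30 pairs, chi-square was at least 27.9 per degree of freedom). DESeq2 1.42.0 and limma 3.58.1 were alternatives.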

Additional observations from a re-analysis of the deposited data

Results flagged for a closer look

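Of 21 sets of 5 libraries (7 genes in 3 groups), 4 had a library far from the others by Dixon's criterion. For normally distributed values, chance alone flags about 1 of 20 sets. CPM from few reads need not be so distributed, so the number of flags cannot be weighed against that rate. CORIN in solvent replicate 1 was at 1.18 CPM, with a gap of 0.76 of the range. KCNK9 in solvent replicate 2 was at 0.395 CPM, from 9 of its 14 solvent reads. HHIPL2 in 33.3 µg/g replicate 5 was at 6.86 CPM, while the rest of that dose group lay at 0.867 to 2.30 CPM. AANAT in solvent replicate 3 was at 0.0475 CPM, its only solvent read; with the other 4 libraries at 0 the criterion is met by construction, so this set says nothing beside the chance rate.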

How the results depend on the processing

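The log2 fold changes of the 7 genes against solvent stayed above 0 in 374 of 374 alternative values, of which 23 moved by more than the SD between replicates, mostly with other prior counts. The genes were chosen by their rise in these same libraries, so the constant sign follows from that choice and carries no further weight. DESeq2 called 656 genes at 3.33 µg/g, 386 at 33.3 µg/g and 19 between doses, against 200, 157 and 0 with edgeR, with 3 and 2 pathway genes and 2 neighbours at 3.33 µg/g. With a replicate block the counts were 117 and 101, with 0 pathway genes at 3.33 µg/g. The replicate numbers are no pairing: residuals of 1 of 15 same-numbered pairs correlated over 0.1, and 0 libraries had their best match under their own number. The block left 5 and 4 of the 7 genes called. Leaving out 1 library gave 111 to 264 genes at 3.33 µg/g, 93 to 194 at 33.3 µg/g (lowest without solvent replicate 1 in both; 117 without 3.33 µg/g replicate 3, and 103 at 33.3 µg/g without solvent replicate 4), 0 to 2 pathway genes at 33.3 µg/g, and 6 to 7 and 3 to 5 of the 7 genes. AANAT was lost at 3.33 µg/g without any 1 solvent library, and CKMT2 and HHIPL2 at 33.3 µg/g without solvent replicate 1, 2, 4 or 5. In fits to 2 groups AANAT and GRXCR2 fell below the count filter against solvent. The causes were not tested. With 1 to 60 solvent reads for 6 genes, depth limits each fold change.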

Other observations

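The mean log2 CPM of 645 chromosome Z genes was 3.08, 3.11 and 3.16 in 3.33 µg/g replicate 4, 33.3 µg/g replicate 1 and 3.33 µg/g replicate 3, and 3.48 to 3.61 in the other treated libraries. Those 3 libraries were the 3 highest treated libraries for AANAT, at 4.74, 0.693 and 2.92 CPM. Among solvent livers replicate 3 stood at 3.13 against 3.43 to 3.49 in the other 4, and it held the only AANAT read. For GRXCR2 the 3 treated libraries were at 4.36, 1.67 and 2.15 CPM, and the other 7 at 0.353 to 2 CPM. CKMT2, itself on chromosome Z, was at 0.644, 1.39 and 5.93 CPM in them. The labels give no sex, the pattern was noticed after the values were seen, and no test was made.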
